A study of Mus musculus with 35 samples.

Results

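The collagen genes are the 44 genes on the array whose symbol has the form of Col, a type number, the letter a and a chain number, out of 19937 genes that a probe set measures under a single symbol. The choice went by symbol alone, though earlier results of these data were known when it was made. Where probe sets shared a gene, the brightest on average was read. Sorted by the kind of protein, 11 members encode fibrillar chains, 6 encode type IV chains, 4 encode other collagens of the basement membrane zone (types VII, XV, XVII and XVIII) and 6 encode type VI chains. A further 9 belong to the fibril-associated collagens (FACIT), 3 to the short-chain network collagens (types VIII and X), 3 to the transmembrane collagens and 2 to no class used here.

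Expression had been measured in 35 samples of mouse mammary cells separated by flow cytometry. The parous group had carried a pregnancy from a mating at the age of 42 days, with 21 days for lactation and 40 days for involution after it. Nulliparous controls were virgin mice of the same age. The labels state no strain, genetic modification or further treatment for either. Each sample came from the fourth mammary glands of a pool of 5 mice and held 10000 cells, or 2000 cells for basal CD49f-high. The 6 subpopulations were stromal cells, total epithelial cells, luminal cells without (Sca1-negative) or with Sca1 (Sca1-positive), and basal cells with low or high CD49f (CD49f-low, CD49f-high). Every subpopulation had 3 samples per history, except that parous basal CD49f-high had 2. Whether the same pool of mice gave several subpopulations is not stated, and the fit treats the samples as independent. In such bulk samples, fewer cells of a type and less RNA per cell cannot be told apart.

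The sorted populations carried the markers of their labels. All 10 measured fibroblast markers (collagens left out) were called higher in stromal than in total epithelial samples, and all 10 basal and all 9 measured luminal markers were called lower. All 10 basal markers were higher and all 9 luminal markers were lower in basal than in luminal samples. The stromal samples were not uniform: their mean luminal marker level ran from 6.60 to 7.91 in parous and from 6.70 to 8.53 in nulliparous samples on the log2 scale, beside 9.51 to 9.76 in nulliparous total epithelium. The values behind every statement are deposited log2 expression values, and their median over the 19937 genes and 35 samples was 6.0. Of the 44 members, 38 had a mean above that median in at least 1 group. The 6 that did not were Col6a4, Col8a2, Col10a1, Col19a1, Col25a1 and Col28a1, and differences in these are small changes among dim signals.

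Collagens are proteins of 3 polypeptide chains wound into a triple helix. Most are secreted and some span the cell membrane, and together they make up most of the protein of connective tissue. Fibrillar collagens such as types I, III and V form the tension-bearing fibres laid down by fibroblasts, while type IV collagen forms the sheet-like network of the basement membrane on which epithelium rests. In the mammary gland the basement membrane is deposited largely by the basal, myoepithelial layer, and the matrix is dismantled and rebuilt during involution after lactation.

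The spread of the collagen genes among the sorted populations was described first. The range of a member's 6 subpopulation means had a median of 0.51 log2 units, against 0.38 over all genes. It exceeded 1 log2 unit in 15 of 44 members (34.1%), against 16.6% of all genes. The widest range belonged to Col14a1 at 4.48, followed by Col12a1 at 3.88, Col6a3 at 3.33, Col8a1 at 3.24, Col3a1 at 3.12 and Col1a2 at 3.11. Of the 44 members, 33 were called in at least 1 of the comparisons between subpopulations. The other 11 (Col2a1, Col4a4, Col6a4, Col8a2, Col9a3, Col11a2, Col19a1, Col22a1, Col24a1, Col25a1 and Col26a1) were called in none of the 15 comparisons made. The share of all genes called in at least 1 comparison is not given here. Single comparisons between subpopulations called from 3.54% to 35.0% of all genes, so neither count is read as particular to collagens. A gene was called where its limma p, adjusted over all 19937 genes after Benjamini and Hochberg, was under 0.05.

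**Figure D1:**
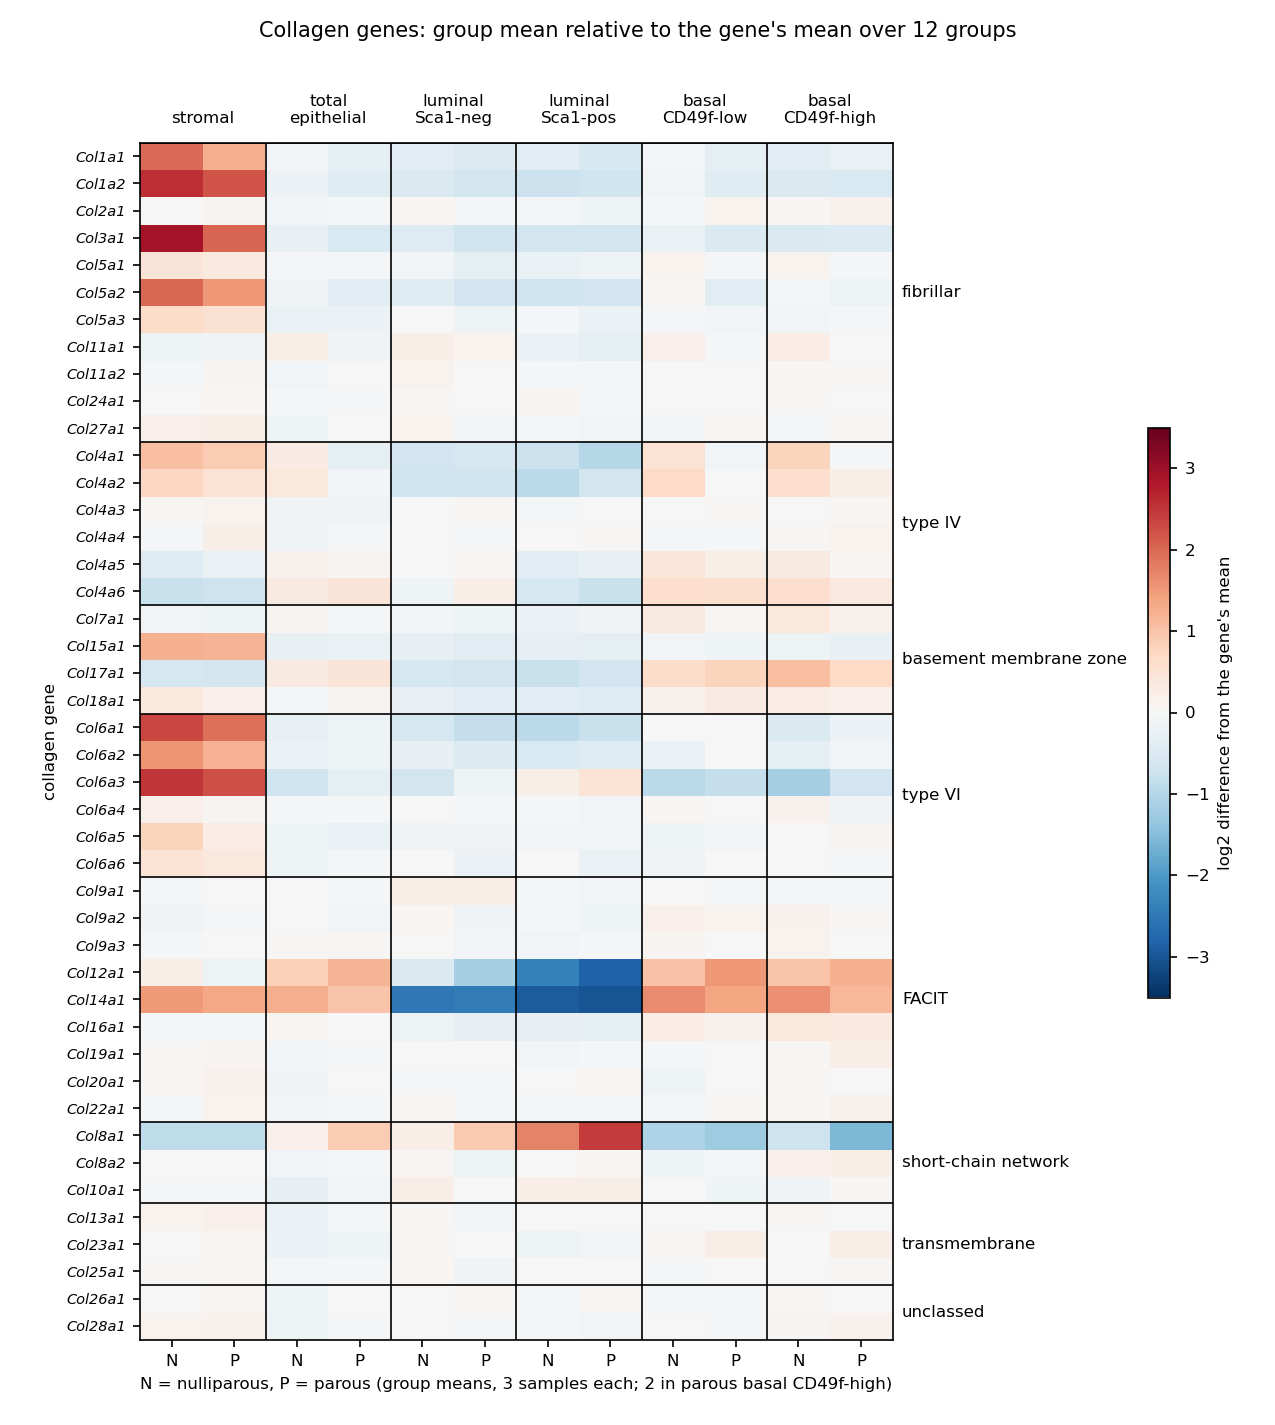
Group means of the 44 collagen genes (rows, ordered by class) in the 12 groups (columns, N nulliparous and P parous), each as the log2 difference from that gene's own mean over the 12 groups. Col1a1, Col1a2, Col3a1, Col5a2, Col6a1, Col6a2 and Col6a3 are high in the stromal columns, Col14a1 and Col12a1 are low in the luminal columns, and Col8a1 is high in the Sca1-positive columns.

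Stromal and total epithelial cells were compared first, averaged over history. Of the 44 members, 20 were called higher in stroma and 6 lower, where 29.2% of all genes were called (13.6% higher and 15.6% lower). In 20 members the stromal and epithelial samples did not overlap at all, as they did not in 16.8% of all genes. Among fibrillar genes 7 of 11 were higher and 1 was lower (median difference 0.46), among type VI genes 5 of 6 were higher (median 1.14), and among type IV genes 3 of 6 were higher and 2 lower (median 0.19). The median over all genes was 0.02.

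The fibrillar genes with a wide stromal excess were those of types I, III and V. Col3a1 encodes the chain of type III collagen, the fibre of pliable tissues. It read between 6.12 and 6.62 in total epithelial samples, 8.90, 8.59 and 9.0 in the parous stromal samples, and 9.22, 10.11 and 9.78 in the nulliparous stromal samples. Every stromal sample lay above every sample of the other 5 subpopulations. The stromal minus total epithelial difference was 2.89 (SE 0.11), a 7.41-fold excess with an adjusted p of 5.8e-19. Col1a2, a chain of type I collagen, read 9.28, 9.45 and 9.32 in parous and 9.46, 10.10 and 9.61 in nulliparous stroma, and its epithelial values lay between 6.61 and 7.25. That difference was 2.71 (SE 0.11, 6.52-fold). Col1a1, the other type I chain, differed by 1.84 (SE 0.13) and Col5a2, a chain of the type V collagen that is built into type I fibrils, by 2.02 (SE 0.10).

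Other fibrillar genes differed less. Col5a3 was 0.80 higher in stroma, Col5a1 0.46 higher and Col27a1 0.25 higher, all called. Col11a1, a chain of cartilage fibrils, was 0.20 lower and was the one fibrillar gene called in that direction. Col2a1, the main cartilage collagen, differed by 0.12, Col11a2 by 0.06 and Col24a1 by 0.10, and none of these was called.

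Col3a1 and Col1a2, the fibrillar genes with the widest stromal excess, differ in their start regions, and both are shown from the RefSeq promoter table for that reason. Each window is the 250 bases before the annotated start, read 5′ to 3′ along the transcript, on GRCm38.p6. Capitals mark matches on either strand to 4 motifs, of which none overlapped in the windows shown. The letters searched were CCAAT, then GGGCGG as the GC box, then TATAAA as the TATA box, and last TGANTCA as the AP-1 motif. On the other strand the GC box reads CCGCCC, and the first motif reads ATTGG. Col1a2 at chr6:4505368-4505617 (+) held 1 CCAAT and 2 GC boxes and was 62% G or C. Col3a1 at chr1:45311288-45311537 (+) held 1 TATAAA and was 35.2% G or C.
Col1a2: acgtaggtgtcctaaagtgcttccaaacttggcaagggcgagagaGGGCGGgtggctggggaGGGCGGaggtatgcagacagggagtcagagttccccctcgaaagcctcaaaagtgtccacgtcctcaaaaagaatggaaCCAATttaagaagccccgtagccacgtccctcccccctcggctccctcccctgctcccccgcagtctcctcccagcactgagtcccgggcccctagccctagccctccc
Col3a1: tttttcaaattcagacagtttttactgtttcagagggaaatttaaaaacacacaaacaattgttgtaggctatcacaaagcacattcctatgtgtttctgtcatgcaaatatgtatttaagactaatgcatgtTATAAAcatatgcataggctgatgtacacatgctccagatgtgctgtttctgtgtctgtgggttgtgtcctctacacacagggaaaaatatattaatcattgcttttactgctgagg
In the table, 35 of the 44 members had a window, 3 of them with more than 1, for 38 windows in all. GGGCGG was found in 22 of these (57.9%) and in 32.7% of all 32851 windows. CCAAT was in 34.2% of the collagen windows and 33.8% of all, TATAAA in 13.2% and 12.4%, and TGANTCA in 2.63% and 6.75%. These matches describe letters in a short window and were not tested for function.

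Type I and type III genes moved together across groups. Over the 12 group means Pearson's r was 0.988 for Col1a1 with Col1a2 and 0.995 for Col1a1 with Col3a1. Within groups, over the deviations of the 35 samples from their group means, these fell to 0.758 and 0.722. The group means share their arrays, and the stromal groups set most of their spread, so both are descriptions.

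Type VI collagen forms beaded filaments between cells and fibrils, and its 3 classical chains were all higher in stroma. Col6a3 read 9.70, 9.83 and 9.79 in parous and 9.84, 10.05 and 10.16 in nulliparous stroma, against 6.71 to 7.38 in total epithelium. The difference was 2.86 (SE 0.14, 7.28-fold). It was 2.34 (SE 0.14) for Col6a1 and 1.58 (SE 0.11) for Col6a2. Col6a5 and Col6a6 were higher by 0.70 and 0.54, and Col6a4 was not called. A second, dimmer probe set of Col6a5 averaged 6.92 in stroma and 4.65 in total epithelium, a wider gap than the one read here (6.52 and 5.82). Col6a1 and Col6a2 followed each other closely over the 12 group means (r = 0.992), but Col6a1 and Col6a3 did less so (r = 0.796).

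Against basal CD49f-low cells alone, stroma had 16 members called higher and 7 lower (26.4% of all genes called, 12.1% higher and 14.3% lower). Col6a3 was 3.26 higher, Col3a1 2.85, Col1a2 2.66 and Col6a1 2.12. The mean level of the fibroblast markers was 10.43 to 10.59 across all stromal samples and 5.95 to 6.91 across the basal CD49f-low samples, and the part of fibroblast RNA in the low basal values was not tested.

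**Figure D2:**
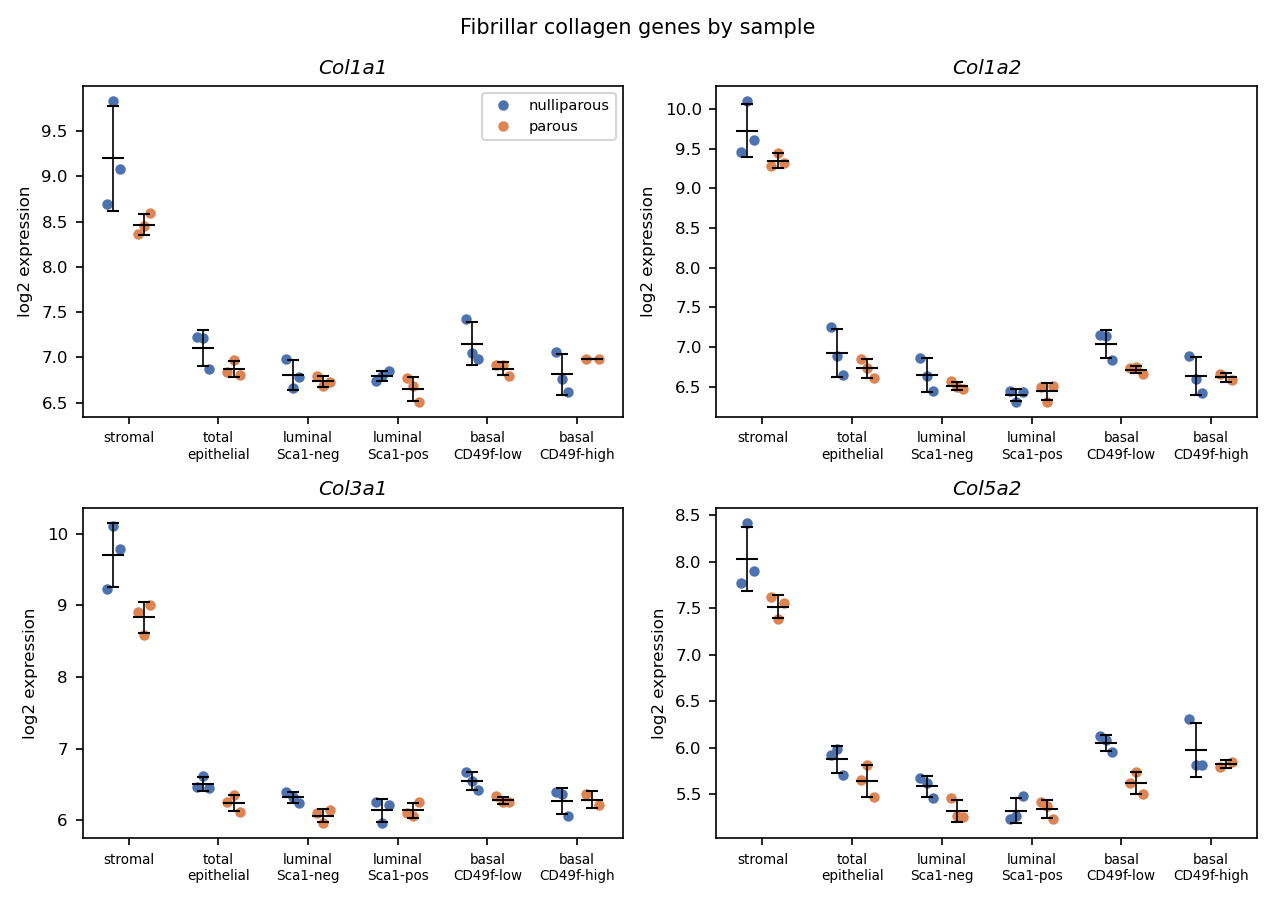
Log2 expression of fibrillar collagen genes in each sample, by subpopulation and history (blue nulliparous, orange parous), with the group mean and SD as bars. The stromal samples stand above the rest in each panel, and the 3 parous stromal values of Col3a1 (8.59 to 9.0) lie below the 3 nulliparous values (9.22 to 10.11).

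Basement membrane genes fell into separate patterns. Col4a1 and Col4a2, whose chains together build the common type IV network, were higher in stroma than in total epithelium by 0.99 (SE 0.12) and 0.49 (SE 0.11). Col4a5 and Col4a6, which form a network with a narrower tissue range, went the other way, lower in stroma by a log2 difference of -0.46 (SE 0.08) and -1.14 (SE 0.09). Col4a3 was 0.19 higher and called, and Col4a4 differed by 0.18 with an adjusted p of 0.0505.

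Col4a6 read 5.66, 5.88 and 5.97 in parous stroma and 5.63, 5.98 and 5.78 in nulliparous stroma. Basal CD49f-low cells gave 7.22, 7.09 and 7.09 in parous and 7.16, 7.15 and 7.16 in nulliparous samples. Stroma and CD49f-low cells were separated by more than 1 log2 unit, with very little spread inside the CD49f-low group. CD49f-high samples ran from 6.85 to 7.21, also above every stromal sample, and luminal Sca1-positive cells (5.67 to 6.15) sat near stroma. The stromal minus CD49f-low difference was -1.33 (SE 0.09) for Col4a6 and -0.66 (SE 0.08) for Col4a5.

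Chains that pair in the protein were compared with each other. Over the 12 group means r was 0.944 for Col4a1 with Col4a2, 0.942 for Col4a5 with Col4a6 and 0.734 for Col4a3 with Col4a4, but 0.136 for Col4a1 with Col4a5. Within groups, over the deviations of the 35 samples, r was 0.587 for Col4a1 with Col4a2, 0.230 for Col4a5 with Col4a6 and 0.294 for Col4a3 with Col4a4. Outside type IV, Col5a1 with Col5a2 had 0.946 over group means and 0.107 within groups, and Col8a1 with Col8a2 had -0.217 and 0.226. The pair of Col4a1 and Col4a2 and that of Col4a5 and Col4a6 are neighbours read in opposite directions. In the RefSeq annotation the starts of Col4a6 and Col4a5 lie 1343 bases apart. The transcripts of Col4a1 (minus strand) and Col4a2 (plus strand) overlap by 22 bases at their starts, shown because the parity results below turn on these genes. The overlap is in capitals within chr8:11312801-11312830 of GRCm38.p6, plus strand.
Col4a1 and Col4a2: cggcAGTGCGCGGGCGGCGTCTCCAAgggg
The 30 bases held GGGCGG 1 time, the GC box letters searched above, and no CCAAT. In the 250 bases before their own starts both genes had CCAAT.

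Between basal and luminal cells, averaged over both populations of each and over history, 19 members were called higher in basal cells and 3 lower, where 35.0% of all genes were called (15.5% higher and 19.5% lower). The groups did not overlap in 7 members, as in 4.67% of all genes. All 4 genes of the basement membrane zone were higher in basal cells (median 0.47), and so were 4 of 6 type IV genes (median 0.63). Among fibrillar genes 4 of 11 were higher (median 0.15). The median over all genes was 0.00. Of the 10 fibroblast markers, 6 were also called higher in basal than in luminal cells (median 0.42), and their part in the collagen differences was not tested.

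Col4a2 was 1.11 (SE 0.08) and Col4a1 1.04 (SE 0.09) higher in basal cells, with no overlap of samples for either. Col4a6 was 0.85 and Col4a5 0.40 higher. Col17a1, a transmembrane collagen of the hemidesmosome that anchors basal cells to the basement membrane, stood out in this class. It read 7.68 to 7.85 in nulliparous and 7.61 to 8.09 in parous CD49f-low cells, 7.75, 8.46 and 8.18 in nulliparous and 8.16 and 7.43 in parous CD49f-high cells. Luminal samples lay between 6.21 and 6.67, and stromal samples between 6.40 and 6.62. Basal and luminal values did not overlap, and the difference was 1.47 (SE 0.08, 2.77-fold).

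The window before the Col17a1 start, shown because it is the member of the basement membrane zone with the widest basal excess, lies at chr19:47692043-47692292 (minus strand), with motif matches in capitals as above. It held 2 TATAAA and 1 CCAAT and was 46% G or C.
Col17a1: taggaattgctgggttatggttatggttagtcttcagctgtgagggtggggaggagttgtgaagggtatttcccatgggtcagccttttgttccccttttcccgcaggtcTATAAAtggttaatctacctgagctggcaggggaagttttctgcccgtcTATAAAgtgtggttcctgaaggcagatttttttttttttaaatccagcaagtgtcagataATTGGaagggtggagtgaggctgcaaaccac

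The other genes of the basement membrane zone had smaller differences. Col18a1, whose protein gives rise to endostatin, was 0.59 higher in basal than in luminal cells, and Col7a1, the chain of anchoring fibrils, was 0.36 higher. Col15a1 was 0.15 higher in basal cells but was chiefly stromal: its stromal values were 7.54 to 7.95, against 6.10 to 6.46 in total epithelium, a difference of 1.46 (SE 0.08).

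**Figure D3:**
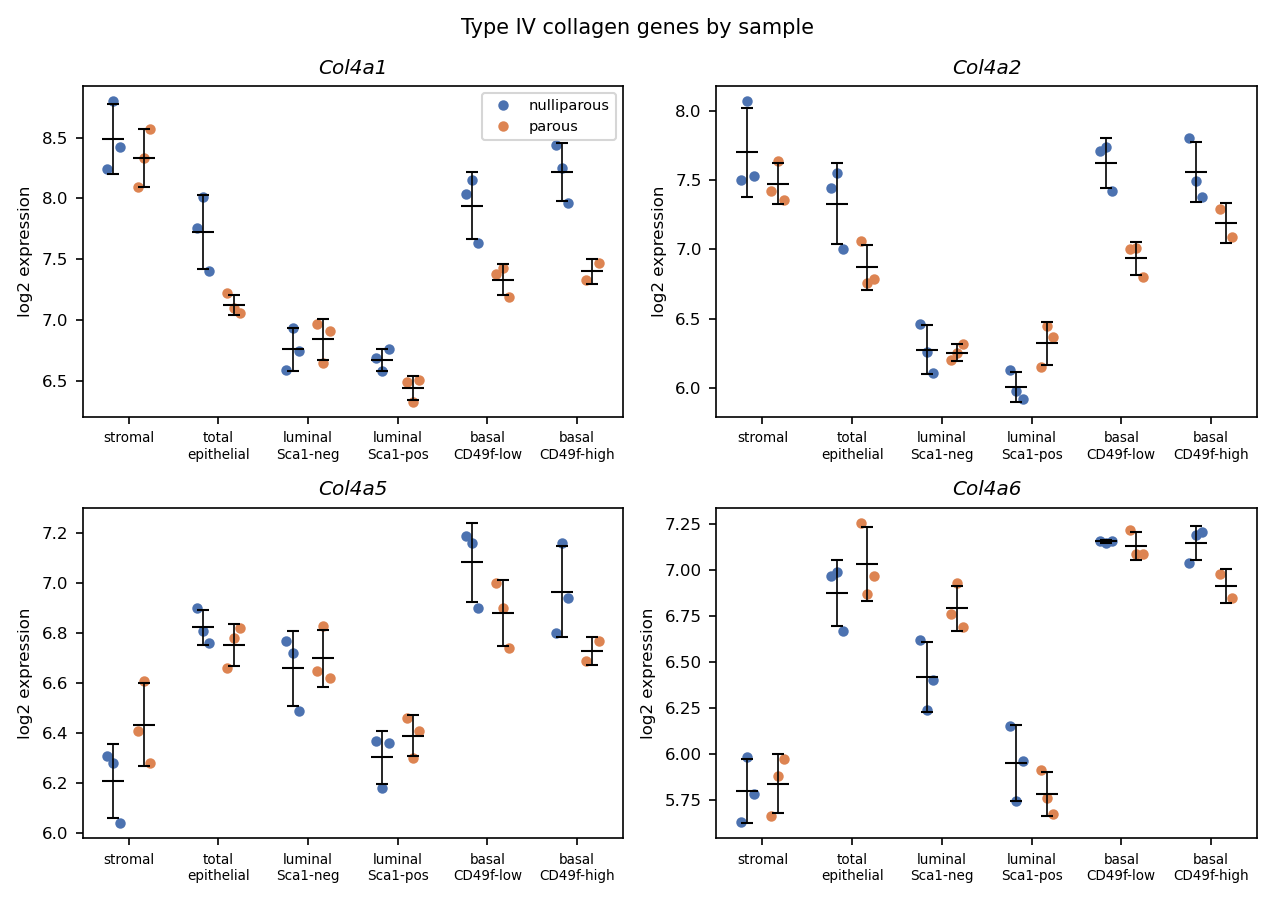
Log2 expression of Col4a1, Col4a2, Col4a5 and Col4a6 in each sample, by subpopulation and history (blue nulliparous, orange parous), with the group mean and SD as bars. Col4a1 and Col4a2 are high in stromal and basal samples, with parous basal samples below nulliparous ones, and Col4a6 is low in stromal and luminal Sca1-positive samples.

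The widest basal differences were in 2 fibril-associated collagens, which bind the surface of fibrils without forming them. Col14a1 read 10.18, 10.08 and 10.44 in nulliparous CD49f-low cells and 10.08, 9.85 and 9.93 in parous ones. It read 6.11, 6.07 and 6.05 in nulliparous and 6.35, 6.08 and 6.01 in parous luminal Sca1-negative cells. Its basal values (9.62 to 10.59) spanned its stromal ones (9.86 to 10.24), while no luminal sample passed 6.35. The basal minus luminal difference was 4.16 (SE 0.08), a 17.9-fold excess with an adjusted p of 1.5e-25. The fibroblast markers averaged at most 6.91 in any CD49f-low sample and at least 10.43 in every stromal sample, and their part in the basal Col14a1 values was not tested.

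Col12a1 read 8.64, 8.72 and 8.97 in nulliparous and 9.22, 9.27 and 9.28 in parous CD49f-low cells. Stromal samples ranged from 7.37 to 8.33, luminal Sca1-negative samples from 6.14 to 7.50, and luminal Sca1-positive samples from 4.86 to 5.47. The populations formed a descending order from basal through stromal to Sca1-negative and Sca1-positive cells, in which the samples of the 2 basal populations overlapped (CD49f-high 8.36 to 9.09), as did those of stroma and Sca1-negative cells. Basal exceeded luminal cells by 2.92 (SE 0.10, 7.56-fold), and stroma fell below CD49f-low cells by a log2 difference of -1.24 (SE 0.13). Among the other 7 fibril-associated members, Col16a1 was 0.55 and Col9a2 0.17 higher in basal cells, and the other five were not called in this comparison.

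The members lower in basal than in luminal cells were Col8a1, Col6a3 and Col10a1. Col8a1 encodes a chain of type VIII collagen, a short-chain network collagen known from the membrane under the corneal endothelium and from vessel walls. It read 9.77, 9.38 and 9.20 in nulliparous and 10.23, 10.08 and 10.19 in parous luminal Sca1-positive cells. Luminal Sca1-negative samples ranged from 7.25 to 8.91, stromal samples from 6.18 to 7.69 and basal samples of both kinds from 6.07 to 7.44. Sca1-positive cells thus had the highest values of all populations without overlap, and basal minus luminal was -2.48 (SE 0.16). The window before the Col8a1 start, shown for this luminal pattern, lies at chr16:57754738-57754987 (minus strand). It held 4 GC boxes, all as CCGCCC, and no other motif searched, and was 60.8% G or C.
Col8a1: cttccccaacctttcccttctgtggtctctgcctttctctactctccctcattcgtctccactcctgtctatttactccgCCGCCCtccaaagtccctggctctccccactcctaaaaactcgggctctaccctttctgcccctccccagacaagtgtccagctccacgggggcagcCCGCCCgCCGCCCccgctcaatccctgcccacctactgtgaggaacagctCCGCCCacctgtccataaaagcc
Its partner chain Col8a2 was dim in every group and was not called.

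Sca1 divides luminal cells, and the Sca1-positive fraction is known to be enriched for cells with hormone receptors. Between Sca1-positive and Sca1-negative cells 8 members were called, 2 higher and 6 lower, where 16.1% of all genes were called (9.0% higher and 7.11% lower). The samples did not overlap in any of these 8, as in 8.38% of all genes. Col8a1 was 1.52 (SE 0.22) and Col6a3 0.76 (SE 0.14) higher in Sca1-positive cells. Col6a3 there read 7.72, 8.0 and 8.34 in parous and 7.84, 7.76 and 7.61 in nulliparous samples, above its basal samples (5.93 to 7.21), and basal minus luminal was -0.87 (SE 0.10).

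Of the genes lower in Sca1-positive cells, Col12a1 differed by -1.76 (SE 0.13), Col4a6 by -0.74, Col14a1 by -0.50, Col11a1 by -0.46, Col4a5 by -0.33 and Col9a1 by -0.28. Of the 10 basal markers, 6 were also called lower in Sca1-positive cells (median -0.66). Their mean level was 6.75 to 7.41 in Sca1-negative and 6.15 to 6.68 in Sca1-positive samples, and their part in these differences was not tested.

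No member was called between basal CD49f-high and CD49f-low cells with limma, where 3.54% of all genes were called. CD49f is the integrin alpha-6 chain, a laminin receptor. At an unadjusted p under 0.05 there were 3 members, beside 18.3% of all genes: Col6a1 at -0.37 (adjusted p 0.147), Col1a2 at -0.25 (adjusted p 0.243) and Col8a2 at 0.28 (adjusted p 0.0706). The 95% intervals of all 44 differences lay within -0.67 and 0.48, and the samples did not overlap in 1 member (Col8a2), as in 0.928% of all genes. Fitting the replicate number as a block, in either form, or leaving out nulliparous CD49f-low replicate 1 brought 1 member past the threshold. Of the fibroblast markers, 2 of 10 were lower in CD49f-high cells (median -0.40), and their part in these values was not tested.

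**Figure D4:**
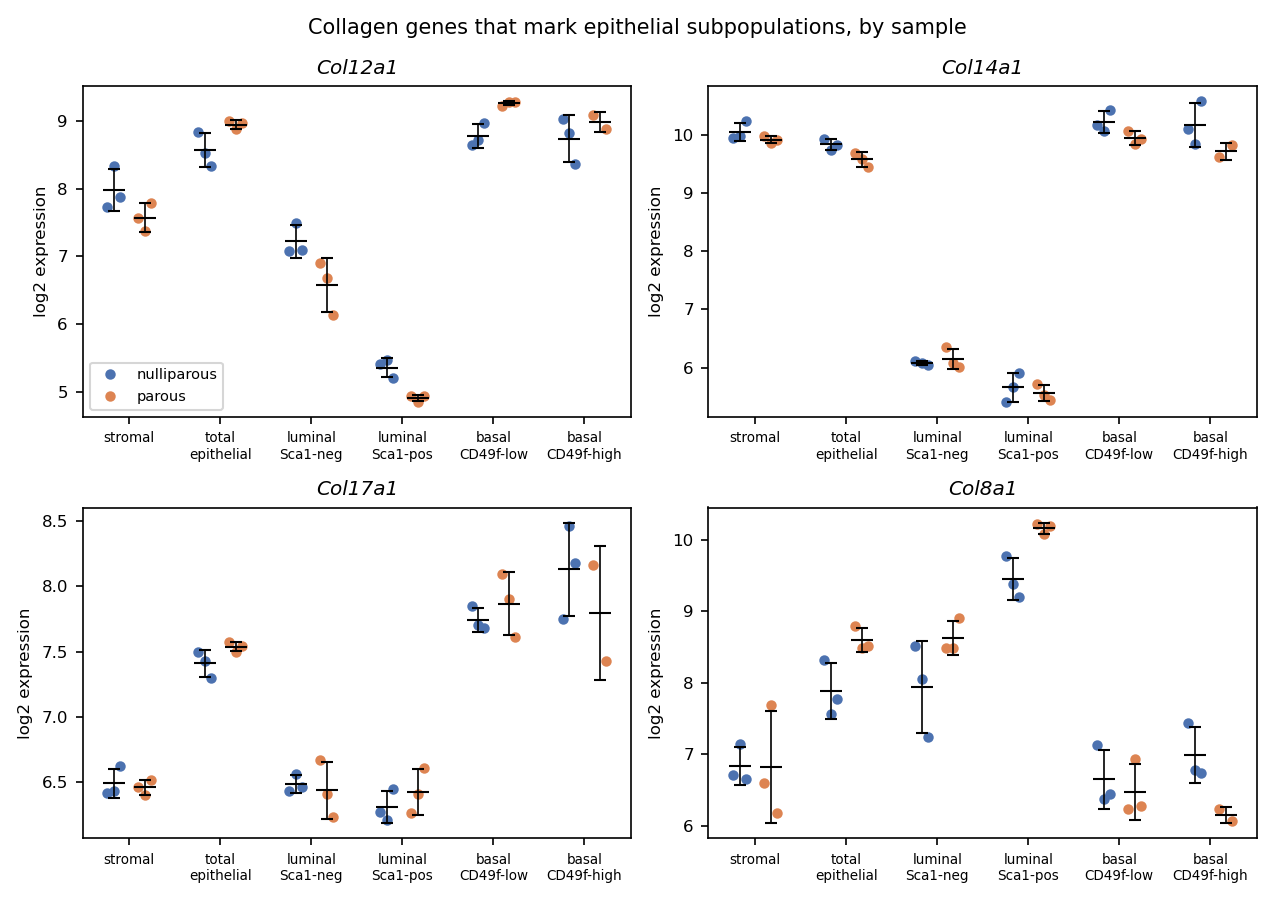
Log2 expression of Col12a1, Col14a1, Col17a1 and Col8a1 in each sample, by subpopulation and history (blue nulliparous, orange parous), with the group mean and SD as bars. Col14a1 is near 10 in stromal and basal samples and near 6 in luminal ones, and Col8a1 is highest in luminal Sca1-positive samples.

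The enzymes that make, trim, bind and degrade collagen were followed as 4 lists. In stroma against total epithelium, 13 of 18 genes of chain modification and folding were higher and 3 lower. Plod2, a lysyl hydroxylase, was 1.76 higher and Serpinh1, the collagen chaperone, 1.05 higher, whereas P3h2, a prolyl 3-hydroxylase, differed by -1.23. Among 11 genes of procollagen processing and crosslinking, 9 were higher and 1 lower, led by Pcolce2 (5.21), Lox (3.96) and Pcolce (3.30). Of 9 receptors, 4 were higher and 2 lower, with the fibrillar collagen receptor Ddr2 at 4.07 and the integrin chain Itga2 at -1.02. Of 7 degradation genes, 4 were higher and none lower. These were Fap (5.77), which is also among the fibroblast markers, Ctsk (4.66), Mmp2 (1.93) and Mmp14 (1.29).

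Of the 18 modification genes, 12 were higher and 1 lower in basal than in luminal cells, with Plod2 at 3.10, P3h2 at 2.30, Colgalt2 at 2.06, Crtap at 1.54 and the prolyl 4-hydroxylase chain P4ha2 at -0.82. Of the 11 processing genes, 3 were higher and 3 lower, and the crosslinking oxidases were on both sides, with Loxl3 at 1.23, Lox at 0.52 and Loxl4 at -0.60. Of the called integrin chains among the receptors, Itga1 (2.20), Itga11 (0.22) and Itgb1 (0.14) were higher and Itga2 (-1.56) was lower. The gelatinase Mmp2 was 3.00 higher in basal cells. Between luminal populations, P3h2 was lower by -3.12 and Mmp14 was 1.26 higher in Sca1-positive cells.

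Parous minus nulliparous differences, which ask what a completed pregnancy left behind, were few among collagens. In stroma 1 of 44 members was called, beside 0.597% of all genes, and 8 had an unadjusted p under 0.05 (18.2%, against 9.16% of all genes). The groups did not overlap in 7 members, 5 lower and 2 higher in parous samples, as in 15.9% of all genes, which is the same share as among the members. The median difference was -0.01 over the members, -0.11 over the 11 fibrillar genes and 0.03 over all genes.

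The called gene was Col3a1, whose 3 parous stromal values all lay below the 3 nulliparous values given above. The difference was -0.88 (SE 0.15, 95% interval -1.19 to -0.57), or 0.545-fold, with an adjusted p of 0.00201. In a fit to the stromal samples alone the adjusted p was 0.307 with the same difference. The other genes of the type I, III and V fibril had lower parous values that did not pass the test. Col1a1 read 8.36, 8.45 and 8.59 in parous and 8.69, 9.83 and 9.08 in nulliparous stroma, a difference of -0.73 (SE 0.18, adjusted p 0.0560). Col5a2 read 7.62, 7.38 and 7.55 against 7.77, 8.42 and 7.90, a difference of -0.52 (SE 0.14, adjusted p 0.126). Col1a2 differed by -0.37 (adjusted p 0.413), and across all 11 fibrillar genes the differences ran from -0.88 to 0.15. In Col3a1, Col1a1, Col1a2 and Col5a2 nulliparous replicate 2 was the highest sample and replicate 1 the lowest nulliparous one. Without nulliparous replicate 1 the Col1a1 difference was -0.99 (adjusted p 0.00282), which made 2 members called.

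Marker levels in stroma moved in part with history. The fibroblast markers averaged 10.47 (10.43 to 10.55) in parous and 10.53 (10.48 to 10.59) in nulliparous stroma, with 0 of 10 called by limma, 3 of 10 at an unadjusted p under 0.05, and a median difference of 0.00. The endothelial markers averaged 6.87 (6.79 to 7.03) and 7.45 (7.27 to 7.77), with 1 of 10 called lower. The basal markers averaged 7.51 (7.39 to 7.62) and 7.98 (7.97 to 7.99), with 2 of 10 lower. The part of the endothelial and basal markers in the Col3a1 difference was not tested.

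Among type VI genes in stroma the parous differences ran from -0.52 to -0.06, none called. Col6a5 differed by -0.52 (adjusted p 0.0688), and its values overlapped: 6.20, 6.44 and 6.13 in parous and 7.14, 6.41 and 6.78 in nulliparous samples. With the mean of both Col6a5 probe sets the difference was -1.0 with an adjusted p of 1.3e-04. Type IV genes in stroma differed by -0.23 to 0.26, none called, and Col4a1 and Col4a2 overlapped between histories. Col4a4 read 6.41, 6.43 and 6.30 in parous and 6.11, 6.07 and 6.17 in nulliparous stroma, without overlap, a difference of 0.26 (adjusted p 0.378).

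The stromal effect on Col3a1 was set against the mean parity effect of the 4 sorted epithelial subpopulations. The difference of effects was -0.75 (SE 0.17, adjusted p 0.0349), the one member called there, beside 0.567% of all genes. It was not called without parous stromal replicate 1 or 2, or without nulliparous stromal replicate 2 or 3, with adjusted p between 0.0546 and 0.172 in these 4 fits. The call was also lost from the compared subpopulations alone (adjusted p 0.0696) and without nulliparous replicate 3 of every subpopulation (0.191). With array weights it was lost too (-0.69, adjusted p 0.0619), and Col6a5 was called instead (adjusted p 0.0431). In the epithelial populations Col3a1 itself was low and its parous and nulliparous values lay between 5.96 and 6.67.

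In basal cells the common type IV pair had lower parous values. In CD49f-low cells Col4a2 read 7.0, 7.01 and 6.80 in parous and 7.71, 7.74 and 7.42 in nulliparous samples. The groups did not overlap. The share of all genes without overlap in these cells is not given here. In stroma, also with 3 samples per history, it was 15.9%. The Col4a2 difference was -0.69 (SE 0.16, adjusted p 0.0259), and Col4a2 was the 1 member called, beside 0.968% of all genes. Col4a1 in the same samples read 7.38, 7.43 and 7.19 against 8.04, 8.15 and 7.63, a difference of -0.61 (SE 0.17, adjusted p 0.0814). The Col4a2 call was lost without any one of the 3 parous samples or without nulliparous replicate 1 or 2, where the adjusted p lay between 0.0541 and 0.142. Without nulliparous replicate 3 both genes were called, Col4a1 with an adjusted p of 0.0339.

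In CD49f-high cells Col4a1 read 7.33 and 7.47 in parous and 8.44, 8.25 and 7.96 in nulliparous samples. Again no samples overlapped, as in 13 members (29.5%) in these cells, 10 lower and 3 higher in parous samples. The share of non-overlap among all genes is not given here. The Col4a1 difference was -0.81 (SE 0.19, 0.569-fold, adjusted p 0.00530). Col4a1 was the 1 member called, in a comparison where 9.06% of all genes were called. Without parous replicate 2, which leaves a single parous sample assumed to vary like the other groups, the adjusted p was 0.0514, and in a fit to this subpopulation alone it was 0.313. Col4a2 read 7.29 and 7.09 against 7.80, 7.49 and 7.38, a difference of -0.36 (adjusted p 0.220).

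Total epithelium, sorted separately, had lower mean values of both genes in parous samples without a call. Col4a1 read 7.22, 7.10 and 7.06 in parous and 7.76, 8.01 and 7.40 in nulliparous samples, a difference of -0.59 (adjusted p 0.146), and Col4a2 differed by -0.46 (adjusted p 0.315). No member was called there by limma (4 at an unadjusted p under 0.05, beside 7.26% of all genes, and 1, Col11a1, with array weights), beside 0.446% of all genes.

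The fibroblast markers had lower means in the parous basal and total epithelial samples. In CD49f-low cells they averaged 6.13 (5.95 to 6.26) in parous and 6.76 (6.45 to 6.91) in nulliparous samples, with 1 of 10 called lower and a median difference of -0.64. In CD49f-high cells the averages were 5.58 (5.56 to 5.60) and 6.04 (5.74 to 6.28), with 1 of 10 called lower and a median of -0.46. In total epithelium they were 6.30 (6.06 to 6.70) and 6.79 (6.36 to 7.16). Basal markers in CD49f-high cells were called higher in 4 of 10 after parity. The endothelial markers there averaged 5.57 in parous and 5.98 in nulliparous samples, with overlapping values and 1 of 10 called lower (Emcn, -2.36). In the same cells 1 of 6 pericyte (Higd1b), 1 of 5 adipocyte (Lep), 1 of 9 leukocyte (Cd68) and 1 of 4 nerve sheath markers (Sox10) were called higher. The part of any of these markers in the Col4a1 and Col4a2 differences was not tested. Within groups, over 35 samples, the deviations of Col4a2 and of the fibroblast markers correlated with r = 0.662, and those of Col4a1 with r = 0.506. For Col4a6 and Col4a5 these r were 0.521 and 0.211. With the endothelial markers r was 0.416 for Col4a2 and 0.312 for Col4a1. All of these are descriptions, and same-numbered samples of 1 history deviated together over all genes, as given at the end.

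Col4a5 and Col4a6, the other type IV pair, were not called by parity in any basal population. Both nevertheless had lower parous values without overlap in CD49f-high cells. There Col4a6 read 6.98 and 6.85 in parous against 7.04, 7.19 and 7.21 in nulliparous samples. Col4a5 read 6.69 and 6.77 against 6.80, 7.16 and 6.94. Col4a6 in nulliparous and parous CD49f-low cells overlapped, and in luminal Sca1-negative cells it read 6.76, 6.93 and 6.69 in parous against 6.62, 6.24 and 6.40 in nulliparous samples, a difference of 0.37 (adjusted p 0.210).

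The effect of history in basal cells was set against that in luminal cells. In the difference of parity effects, basal minus luminal, 4 of 44 members were called, beside 2.04% of all genes. They were Col12a1 at 0.91 (SE 0.19, adjusted p 0.00675), Col4a2 at -0.67 (SE 0.16, adjusted p 0.0223), Col4a1 at -0.64 (SE 0.17, adjusted p 0.0461) and Col8a1 at -1.20 (SE 0.32, adjusted p 0.0417). The number called was 2 to 4 when single samples were left out. Col12a1 kept its call in every alternative run, Col4a2 in all but 1 of 33, Col4a1 lost it in 21 of 33 and Col8a1 in 18 of 33.

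The Col12a1 means lay in opposite directions. In luminal Sca1-negative cells Col12a1 read 6.91, 6.69 and 6.14 in parous and 7.08, 7.50 and 7.09 in nulliparous samples, a difference of -0.65 (adjusted p 0.0940). In Sca1-positive cells it read 4.94, 4.86 and 4.95 against 5.41, 5.47 and 5.21, a difference of -0.45 (adjusted p 0.588). In CD49f-low cells the parous values were the higher ones, by 0.48 (adjusted p 0.302). None of these 3 pairs of groups overlapped, and no single difference was called. The shares of all genes without overlap in these subpopulations and in total epithelium are not given here, so the separations are descriptions. In CD49f-high cells the Col12a1 values overlapped, with 9.09 and 8.88 in parous against 9.03, 8.82 and 8.36 in nulliparous samples. Stromal values overlapped too (7.37 to 7.79 against 7.73 to 8.33), whereas total epithelial values did not (8.87 to 8.99 against 8.33 to 8.83). Col12a1 was also the one member whose parity effect differed among all 6 subpopulations by limma's F test (adjusted p 0.0164, beside 2.80% of all genes). The basal markers in Sca1-negative cells averaged 7.29 (7.22 to 7.41) in parous and 6.87 (6.75 to 7.08) in nulliparous samples, with 3 of 10 called higher, and their part in the Col12a1 difference was not tested.

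Col8a1 had higher parous means in the luminal populations and a lower one in CD49f-high cells. Its Sca1-positive values, given above, did not overlap between histories, and the difference was 0.72 (SE 0.31, adjusted p 0.639). The endothelial markers in Sca1-positive cells averaged 5.90 (5.72 to 6.09) in parous and 5.35 (5.19 to 5.50) in nulliparous samples, also without overlap, with 0 of 10 called by limma and 3 of 10 at an unadjusted p under 0.05. The basal marker Krt14 was called higher there (1.54) and the fibroblast marker Dcn lower (-1.35). The part of these markers in the Col8a1 difference was not tested. In Sca1-negative cells the Col8a1 difference was 0.68 (adjusted p 0.395) with overlapping values, and in total epithelium 0.71 (adjusted p 0.599). In CD49f-high cells it read 6.23 and 6.07 against 7.44, 6.78 and 6.74, a difference of -0.84 (adjusted p 0.139). In no single subpopulation did it pass the test.

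Neither luminal population had a member called by limma on its own. In Sca1-negative cells 6 members, and 11.4% of all genes, had an unadjusted p under 0.05, 2 members were called with array weights (Col12a1 and Col4a6), and 1.00% of all genes were called. In Sca1-positive cells 3 members, and 6.63% of all genes, had an unadjusted p under 0.05, no member was called in any alternative run, and 0.607% of all genes were called.

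Averaged over the 4 sorted epithelial subpopulations, 3 members were called, beside 6.20% of all genes. Col4a1 fell by 0.39 (adjusted p 0.00445, SE 0.09), a call kept in every alternative run. This mean joins unlike effects, as the basal minus luminal difference of effects was -0.64. In Sca1-negative cells Col4a1 read 6.97, 6.65 and 6.91 in parous and 6.59, 6.94 and 6.75 in nulliparous samples. In Sca1-positive cells it read 6.49, 6.33 and 6.51 against 6.69, 6.58 and 6.76. Col11a1 fell by 0.19 (SE 0.05, adjusted p 0.0173), and Col6a3 rose by 0.35 (SE 0.10, adjusted p 0.0341). The Col11a1 call was lost from the compared subpopulations alone (adjusted p 0.0686). It was also lost without nulliparous replicate 1 (0.0637) or replicate 3 (0.113) of every subpopulation. The Col6a3 call was lost in 12 of 33 alternatives. The Col6a3 value was 0.19 (adjusted p 0.315) without nulliparous replicate 3 of every subpopulation. It was 0.34 (adjusted p 0.0572) with the replicate number within history as a random block.

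**Figure D5:**
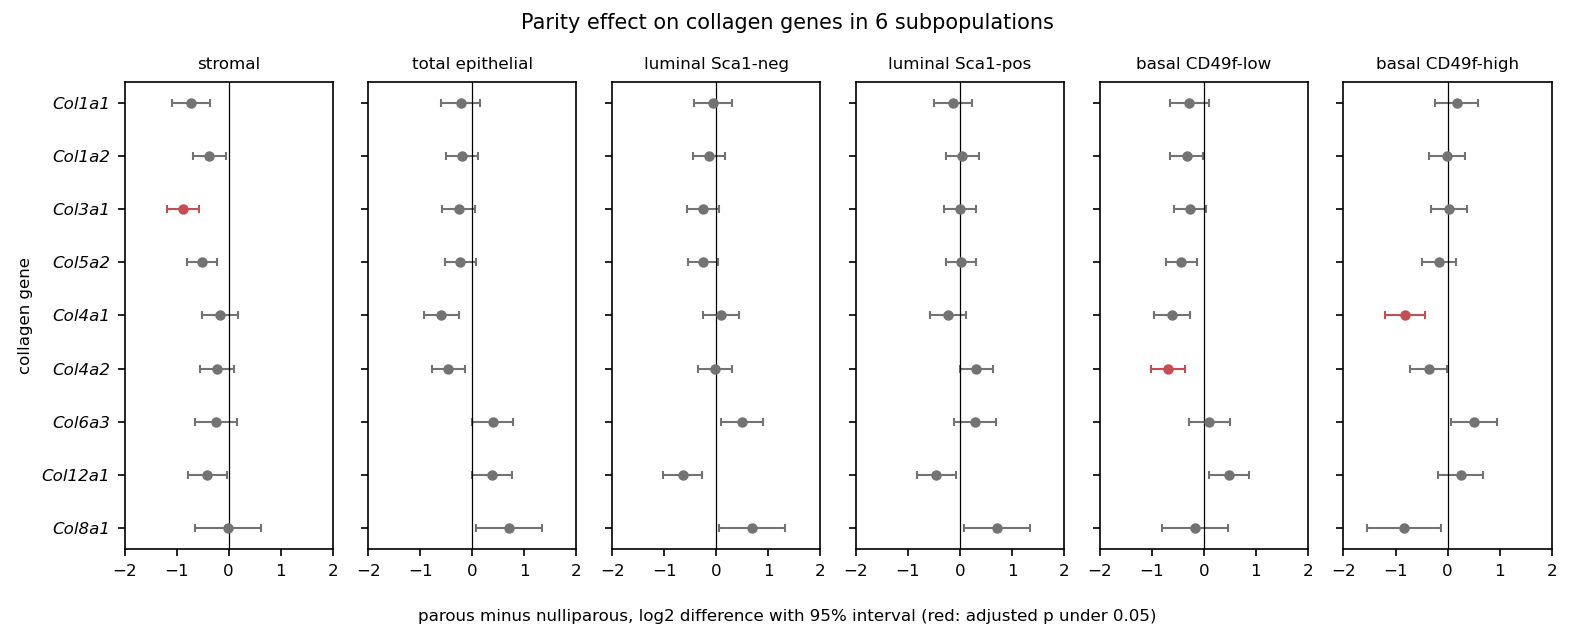
Parous minus nulliparous log2 differences in each subpopulation, for 9 genes, as points with 95% intervals from the limma fit, in red where the adjusted p is under 0.05. Col3a1 in stroma (-0.88), Col4a2 in basal CD49f-low (-0.69) and Col4a1 in basal CD49f-high cells (-0.81) are the 3 called.

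Among the collagen-related lists, 2 of 18 modification genes and 2 of 9 receptors were called by parity in CD49f-high cells, the comparison where 9.06% of all genes were called. Plod2 fell by 1.48 there (adjusted p 0.00226) and Colgalt2, a collagen galactosyltransferase, rose by 1.30 (adjusted p 0.0136). Itga1 rose by 1.86 (adjusted p 5.8e-05) and Itga2 fell by 1.56 (adjusted p 5.5e-04). In CD49f-low cells the same 4 genes differed by -0.74, 0.13, 0.36 and -0.81, none called. In Sca1-positive luminal cells Pcolce, which enhances the cleavage of procollagen ends, rose by 0.99 (adjusted p 0.0142). In stroma no gene of the 4 lists was called by limma by parity, with 2 of 18, 1 of 11, 3 of 9 and 1 of 7 at an unadjusted p under 0.05, in the order of the lists above.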

How the data were processed

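RNA from pools of sorted mouse mammary cells had been amplified, labelled with biotin and run on 1-colour Affymetrix arrays, per the labels' protocols. The authors deposited 1 log2 expression value per probe set and sample. The submitters' processing notes name affy. For its version, the normalization and the genome build, the answer is not given in the sources used here. Column medians over all probe sets ran from 5.81 to 5.92. The number of arrays limits the precision.

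Of 34760 probe sets, the platform annotation gave 21640 a single symbol, 1321 several and 11799 none, and only the first were used. Groups and replicate numbers came from the labels. In R 4.3.3, limma 3.58.1 (lmFit, eBayes with trend) was fitted to all 35 samples as 12 group means, with Benjamini-Hochberg adjustment over 19937 genes and a threshold of 0.05. The labels call the replicates biological. Contrasts averaged over history weigh both histories equally. The fit was tested on simulated data, for parity in stroma, parity in CD49f-low cells and basal minus luminal cells. Simulated samples were independent, so the test does not cover deviations shared by same-numbered samples.

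All members could be named, with values for every fibrillar and type IV gene and for called members of other classes, and up to 4 called genes per direction from each enzyme list. The members, classes, marker lists and tests were chosen with earlier results of these data known. Promoter windows came from a RefSeq table of GRCm38.p6. Listed genes without a single-symbol probe set, such as Fkbp10, Adamts2, Loxl2, Gp6, Cfd and Prlr, were not used here. Alternatives were eBayes without a trend, array weights, quantile normalization, leaving out dim genes and the mean of probe sets. Others were the replicate number as a random or fixed block, and only the subpopulations compared. Samples were also left out, either nulliparous replicate 1 or 3 of every subpopulation, or each sample in turn. Nulliparous replicate 2 and the parous replicate numbers were not dropped from every subpopulation.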

Additional observations from a re-analysis of the deposited data

Results flagged for a closer look

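These results were singled out because the parity effect, parous minus nulliparous, differed between cell populations by a test of the difference itself in limma. For Col3a1 the effect in stroma minus that in the sorted epithelial populations was -0.75. For basal minus luminal cells the difference of effects was 0.91 for Col12a1, -0.64 for Col4a1, -0.67 for Col4a2 and -1.20 for Col8a1. Over all 6 subpopulations the effect on Col12a1 differed with an adjusted p of 0.0164.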

How the results depend on the processing

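Of 90 calls of a collagen gene in a comparison, 66 were kept in every alternative run and none changed direction. Between subpopulations 64 of 79 were kept, and for parity effects 2 of 11 (Col12a1 in basal minus luminal cells and Col4a1 in the mean of 4 sorted epithelial subpopulations). The number of members called moved as follows, and the cause was not tested unless samples were left out. In stroma it was 1, and 2 without a trend, with array weights, without dim genes, with the mean of probe sets or with a fixed replicate block. It was 0 from stromal samples alone, and 3 without nulliparous replicate 1 of every subpopulation. With array weights it went from 0 to 1 in total epithelium, from 0 to 2 in luminal Sca1-negative, from 1 to 2 in CD49f-low and from 1 to 0 in CD49f-high cells. From the subpopulation alone it was 0 in CD49f-low and in CD49f-high cells and 1, in place of 3, for the mean of 4 sorted populations. In CD49f-low cells it was 0 without nulliparous replicate 1 of every subpopulation and 2 without nulliparous replicate 3 of every subpopulation. For stroma minus sorted epithelium it went from 1 to 2 with the mean of probe sets or without nulliparous replicate 1 of every subpopulation. It went to 0 from the compared subpopulations alone or without nulliparous replicate 3 of every subpopulation. For basal minus luminal effects it went from 4 to 2 with array weights or quantile normalization. For the F test over 6 subpopulations it went from 1 to 2 without a trend, with array weights, without dim genes, with the mean of probe sets or with either replicate block. It went to 3 without nulliparous replicate 1 of every subpopulation.

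With single samples left out, the number called lay between 1 and 2 in stroma, 0 and 2 in CD49f-low, 1 and 2 in CD49f-high cells, 0 and 2 for stroma minus epithelium, 2 and 4 for basal minus luminal effects, 0 and 1 for CD49f-high minus CD49f-low and 1 and 3 for the F test. Between subpopulations it lay between 22 and 27, 20 and 23, and 19 and 22 for the 3 comparisons with the most calls.

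Replicate numbers were checked as a pairing over all genes. Deviations of same-numbered samples of 1 history had a median correlation of 0.121 in nulliparous (28 of 45 pairs over 0.1) and 0.0765 in parous samples (15 of 40), and across histories of 0.0394. Each sample lay closest to its own number in 17 of 17 parous and 18 of 18 nulliparous samples, a hint from the data and not from the design. Every same-numbered pair of 1 history had a positive correlation, the lowest 0.0295 in nulliparous and 0.0116 in parous samples. Between different numbers the medians were -0.0621 and -0.0462. As not all pairs passed 0.1, the numbers were not used as a pairing in the main fit. That fit takes the samples as independent, which these shared deviations do not bear out. With the number as a random replicate block (correlation 0.0703) or a fixed one, 1 member (Col8a2, adjusted p 0.0461 and 0.0415) was called between CD49f-high and CD49f-low cells, where none was without it, and Col6a3 in the mean of 4 sorted populations was not called with the random block (adjusted p 0.0572).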
